A study of Homo sapiens with 27 samples.

Results

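The LS174T line is a human colorectal carcinoma cell line, and its SNAI1 derivative carries a doxycycline-inducible, HA-tagged mouse Snail1 transgene. The samples described here are the SNAI1 line arrays taken 24 h (1 array) and 48 h (2 arrays) after doxycycline, set against the same line at 0 h (2 arrays), so that 5 of the 27 arrays of the series enter, 3 of them from the induced phase. They were chosen by line and time alone. A control line without an overexpressed gene, sampled at 0, 24 and 48 h with 1 array each, was used as a check for culture time and doxycycline. Doxycycline was used at 0.1 µg/ml and renewed after 48 h, and per the labels' protocols RNA was taken after doxycycline for the stated time. All 8 arrays came from the larger of the array sets, in which 18 Illumina bead arrays share the form of their detection p-values. The 8 arrays detected 18555 to 19448 probes each (detection p under 0.01). The labels give no cell clone and do not say whether replicate arrays came from separate cultures, so p-values measure the spread between these arrays, which may be technical.

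SNAIL proteins are zinc finger repressors that bind E-box sequences in promoters of epithelial genes, and their induction is a standard way to start an epithelial to mesenchymal transition. In that transition, cells lose cell-cell junctions and apical polarity and gain matrix and migration genes. Intestinal tumour cells such as LS174T combine active Wnt signalling with goblet and enterocyte traits, and LEF1 is a DNA-binding partner of beta-catenin in the Wnt pathway.

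The human SNAI1 probe was detected on none of the 18 arrays. Since the transgene is the mouse gene, this probe checks neither its presence nor its level. The probe for ZEB1, another repressor of epithelial genes, was detected on none of these arrays either. At 0 h, 14 of 14 colorectal epithelial identity markers were detected on each SNAI1 line array, against 13 at 24 h and 12 on each array at 48 h. The markers that were no longer detected were KRT20 at 24 h and KRT20 and CEACAM5 at 48 h. The 14 include CTNNB1, the beta-catenin gene, which is not specific to colorectal epithelium and was detected on each of these arrays. These are bulk RNA measurements, so fewer cells of a type and less RNA per cell cannot be told apart.

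After 24 h, 255 of 13332 genes had passed the test against 0 h (limma with Benjamini-Hochberg adjustment, 5%), 85 higher and 170 lower, or 1.91% of all genes (0.638% higher and 1.28% lower). After 48 h, 2514 genes had passed against the same 0 h arrays, 1259 higher and 1255 lower, or 18.9% (9.44% and 9.41%). The direct test of 48 h against 24 h called 48 genes, 38 higher and 10 lower, or 0.36% (0.285% and 0.075%). The 24 h group is a single array whose spread was taken from the pairs at other times, so a gene that missed the threshold at 24 h is not shown to have been unchanged. The median log2 change over all genes was 0.02 at 24 h and 0.04 at 48 h. Every count was smaller with any 1 of the 4 arrays left out. Each omission also takes a replicate pair from the spread shared by all comparisons, which has 4 residual degrees of freedom. The 48 h arrays enter the 24 h comparison only through that spread, the normalization and the probe filter. A smaller count therefore does not show that the calls rest on the values of the array left out. Without SNAI1 0 h replicate 1, 0 h replicate 2, 48 h replicate 1 or 48 h replicate 2, the 24 h count was 64, 34, 125 and 131 genes, and the 48 h count 1108, 1204, 986 and 1193. For 48 h against 24 h the same omissions left 9, 9, 0 and 1 genes. That last comparison called 227 genes higher and 146 lower in the authors' normalized values, 223 and 146 without background correction, 149 and 92 with a normexp offset of 50 and 191 and 158 with trend and robust eBayes, against 38 and 10.

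In the control line no gene passed the test at 24 h or at 48 h (limma, 1 array against 1). At an unadjusted p under 0.05 it had 586 genes at 24 h and 506 at 48 h, against 2294 and 4415 in the SNAI1 line. The change in the SNAI1 line minus that in the control line passed for 8 genes at 24 h (0.06%), 2 higher (0.015%) and 6 lower (0.045%), and for 299 genes at 48 h (2.24%), of which 151 were higher (1.13%) and 148 lower (1.11%). No gene passed for the step between 24 h and 48 h in that difference, and 1048 had an unadjusted p under 0.05. The standard error of such a difference was larger than that of the change within the SNAI1 line, with a median over genes of 0.35 against 0.23 at 24 h and of 0.33 against 0.19 at 48 h.

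Among the 8 largest falls at 24 h that passed the test, GOLT1A and SLC27A2 were close to their 48 h level by then. GOLT1A, which encodes a Golgi vesicle transport protein, measured 9.26 and 9.19 on the 0 h arrays, 5.72 at 24 h and 5.29 and 5.27 at 48 h (normalized log2 intensity). SLC27A2, a very long chain acyl-CoA synthetase, measured 10.07 and 9.99 at 0 h, 6.25 at 24 h and 5.98 and 5.52 at 48 h. For both genes all 3 induced arrays lay more than 3 log2 units under the 0 h pair, while the control line stayed at 9.14 to 9.68 and at 10.32 to 10.45. The log2 change of GOLT1A was -3.51 at 24 h (SE 0.31, adjusted p = 0.00703) and -3.95 at 48 h (SE 0.26, adjusted p = 0.000298). SLC27A2 changed by -3.78 at 24 h (SE 0.46, adjusted p = 0.0149) and -4.28 at 48 h (SE 0.37, adjusted p = 0.000819).

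The other 6 of the 8 largest 24 h falls among genes that passed the test were KCNT1, a sodium-activated potassium channel (-4.32), PARD6A of the apical polarity complex (-3.94), the secreted phospholipase PLA2G3 (-3.73), the cartilage proteoglycan SNORC (-3.41), BSPRY and the lipid flippase ATP10B. ATP10B was not detected on any of the 3 induced arrays and was at least 9.93-fold lower at 24 h and at least 11.5-fold lower at 48 h than at 0 h. BSPRY was not detected at 24 h, where it was at least 10.0-fold lower, and measured 5.92 on 48 h replicate 2. For 7 of these 8 genes the 95% interval of the further change from 24 h to 48 h held 0. It ran from -1.18 to 0.30 for GOLT1A and from -1.58 to 0.58 for SLC27A2. SNORC was the exception, with an interval from -1.75 to -0.02. For 3 of the 8 the estimate was upward, among them PARD6A (0.87) and BSPRY (0.80). All 8 genes were chosen by their values on the 24 h array, which is also the start of this step. That choice favours a small or upward step. BSPRY, PARD6A, ATP10B and KCNT1 measured 4.57, 4.78, 4.88 and 4.89 at 24 h, where the dimmest detected probe lay at 4.64. For these a further fall could hardly be measured, so the intervals do not show that the falls were complete. BSPRY and PLA2G3 no longer passed at 24 h with any 1 of the 4 arrays left out. SLC27A2, PARD6A, SNORC and ATP10B lost the 24 h call without either 0 h array, and KCNT1 without 0 h replicate 2.

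Promoter windows of 300 bases, from 250 before to 50 after the annotated start (RefSeq, GRCh38.p14), were at hand for 10604 of the 13332 genes. They were searched on both strands for CAGGTG, the E-box form that SNAIL proteins bind, which reads CACCTG on the other strand. Of the genes lower at 24 h, 64 of 129 windows (49.6%) held at least 1 match, against 1988 of 10604 (18.7%) over all tested genes. Genes that were lower at 48 h and not at 24 h had a match in 225 of 835 windows (26.9%). Genes higher at 24 h had a match in 10 of 64 (15.6%) and genes higher at 48 h in 134 of 1051 (12.7%). Windows with 2 or more matches made up 20.9% for genes lower at 24 h and 2.77% over all genes. The related form CAGCTG, which is its own reverse complement, was found in 19.4% of the windows of genes lower at 24 h and in 17.2% of all. Median GC content was 66.3% in the first group and 64.7% over all. A match is a description of letters in the window and not a site shown to be bound.

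**Figure D1:**
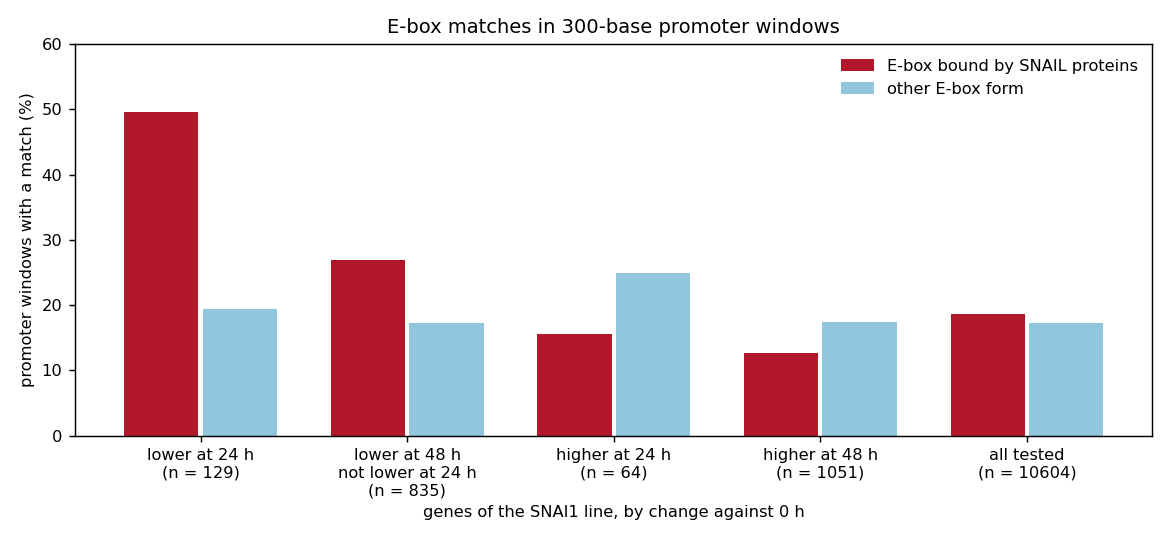
Share of 300-base promoter windows (y axis, percent) with at least 1 match to CAGGTG on either strand (red) or to CAGCTG (blue), for genes of the SNAI1 line by their change against 0 h (x axis, n windows each). The red bar reaches 49.6% for genes lower at 24 h and 18.7% for all tested genes, while the blue bars of these groups are at 19.4% and 17.2%. Bars are shares of genes, with no error bar.

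Windows of 4 genes that fell by 24 h show where such matches lie, with CAGGTG and CACCTG in capitals. GOLT1A, SLC27A2 and BSPRY had the most matches among the 7 of the 8 largest falls that had a window, and RAB25, a small GTPase of epithelial recycling endosomes, was added after its values were seen. GOLT1A is at chr1:204213939-204214238 on the minus strand, SLC27A2 at chr15:50181946-50182245 on the plus strand, BSPRY at chr9:113349291-113349590 on the plus strand and RAB25 at chr1:156060910-156061209 on the plus strand.
GOLT1A: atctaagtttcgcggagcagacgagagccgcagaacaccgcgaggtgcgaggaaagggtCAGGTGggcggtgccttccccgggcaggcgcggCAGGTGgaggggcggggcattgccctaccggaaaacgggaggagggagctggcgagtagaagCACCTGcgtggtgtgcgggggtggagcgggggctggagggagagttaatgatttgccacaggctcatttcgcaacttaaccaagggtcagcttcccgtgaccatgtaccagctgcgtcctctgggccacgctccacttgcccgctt
SLC27A2: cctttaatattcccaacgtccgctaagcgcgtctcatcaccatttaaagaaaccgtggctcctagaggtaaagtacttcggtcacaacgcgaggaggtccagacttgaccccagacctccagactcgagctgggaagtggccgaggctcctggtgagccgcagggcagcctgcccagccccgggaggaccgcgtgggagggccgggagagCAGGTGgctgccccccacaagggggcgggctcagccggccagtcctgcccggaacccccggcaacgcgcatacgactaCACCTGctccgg
BSPRY: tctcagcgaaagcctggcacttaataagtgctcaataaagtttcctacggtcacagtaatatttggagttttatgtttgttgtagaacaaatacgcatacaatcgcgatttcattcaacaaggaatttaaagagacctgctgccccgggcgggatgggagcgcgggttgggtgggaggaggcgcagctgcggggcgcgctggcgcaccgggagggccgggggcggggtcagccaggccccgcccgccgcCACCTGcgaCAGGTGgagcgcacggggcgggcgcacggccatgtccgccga
RAB25: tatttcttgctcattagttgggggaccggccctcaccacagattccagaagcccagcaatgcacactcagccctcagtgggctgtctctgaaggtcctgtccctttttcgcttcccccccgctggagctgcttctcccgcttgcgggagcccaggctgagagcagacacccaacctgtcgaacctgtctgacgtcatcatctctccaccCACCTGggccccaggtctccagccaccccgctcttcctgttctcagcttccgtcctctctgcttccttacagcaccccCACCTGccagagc
With the annotated start base as 0, the GOLT1A matches begin at -191, -158 and -96, those of SLC27A2 at -40 and 38, those of BSPRY at -1 and 8, and those of RAB25 at -41 and 37.

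A share of junction genes was lower at each time. Of 27 tested genes for adherens and tight junctions, desmosomes and gap junctions, 4 were lower at 24 h (14.8%, against 1.28% of all genes) and 14 at 48 h (51.9%, against 9.41%), and none was higher. Their median log2 change was -0.69 at 24 h and -0.88 at 48 h. With any 1 of the 4 SNAI1 line arrays at 0 h or 48 h left out, 0 to 2 of them were lower at 24 h and 8 to 9 at 48 h. CLDN7, a claudin of tight junctions, measured 11.34 and 11.65 at 0 h, 8.25 at 24 h and 7.83 and 8.15 at 48 h, with 11.48 to 11.84 in the control line. The 24 h array lay close to the 48 h pair and more than 3 log2 units under both 0 h arrays. CLDN7 changed by -3.24 at 24 h (SE 0.32, adjusted p = 0.00826) and -3.50 at 48 h (SE 0.26, adjusted p = 0.00047).

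GJB2, which encodes the gap junction protein connexin 26, was lower at both times, with 10.76 and 10.66 at 0 h, 7.41 at 24 h and 5.88 and 6.43 at 48 h. Both 48 h arrays lay under the 24 h array, but that step did not pass (-1.25, adjusted p = 0.228). CLDN3 had the largest fall among genes that passed at 48 h. It measured 10.38 and 10.12 at 0 h, 5.64 at 24 h and 5.37 and 4.53 at 48 h, the last not detected. Its log2 change was -4.61 at 24 h, where it missed the threshold (SE 0.85, adjusted p = 0.050), and -5.30 at 48 h (SE 0.69, adjusted p = 0.00334). CLDN2 and LLGL2, a basolateral polarity protein, were the other junction genes lower at 24 h, by -3.12 and -1.15. A second LLGL2 probe, detected on both 0 h arrays alone, changed by -0.77, and another, detected on 1 of the 5 arrays, by -0.44.

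CDH1, the E-cadherin gene of adherens junctions, had a smaller estimated change than these claudins. It measured 11.44 and 11.53 at 0 h, 11.04 at 24 h and 10.56 and 10.64 at 48 h, so the 3 induced arrays lay under both 0 h arrays. The log2 change was -0.44 at 24 h (95% interval -0.92 to 0.03, adjusted p = 0.322) and -0.88 at 48 h (SE 0.16, adjusted p = 0.0117). The 48 h call was lost when any 1 of the 4 SNAI1 arrays at 0 h or 48 h was left out, with values up to an adjusted p of 0.0737. EPCAM, an epithelial adhesion molecule, changed by -0.87 at 24 h (adjusted p = 0.0748) and -1.55 at 48 h (adjusted p = 0.00130).

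In a list of epithelial and intestinal regulators, the genes that passed were all lower. The list also holds RAB25 and ST14, which are not transcription or splicing regulators, and RAB25 was among those lower at 24 h. Of 22 tested, 3 were lower at 24 h (13.6%, against 1.28% of all genes) and 14 at 48 h (63.6%, against 9.41%), with medians of -0.89 and -1.27 and no gene higher. With 1 array left out these counts were 0 to 1 and 8 to 10. RAB25 measured 11.76 and 11.61 at 0 h, 9.54 at 24 h and 9.28 and 9.61 at 48 h, and the membrane protease ST14 changed by -1.76 at 24 h and -1.93 at 48 h. The interval of the further change to 48 h held 0 for both and ran from -0.69 to 0.50 for RAB25 and from -0.86 to 0.53 for ST14. EHF, an epithelial ETS factor, measured 9.15 and 9.18 at 0 h, 7.78 at 24 h and 6.14 and 6.25 at 48 h. The 3 times did not overlap, with a further change of -1.58 (interval -2.16 to -1.0, adjusted p = 0.0644 for 48 h against 24 h). The intestinal master regulators CDX1 and CDX2 changed by -1.79 and -1.27 at 48 h and had not passed at 24 h. ESRP1, an epithelial splicing regulator, was not detected at 48 h and was at least 3.15-fold lower.

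Among 7 tested simple epithelial keratins, 3 were lower at 48 h (42.9%, against 9.41% of all genes) and none had passed at 24 h. KRT19 measured 10.67 and 10.45 at 0 h, 9.71 at 24 h and 8.74 and 7.91 at 48 h. KRT8 changed by -0.71 and KRT80 by -1.19 at 48 h. Only 0 to 1 keratins passed with 1 array left out.

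Genes of differentiated intestinal cells that passed were also lower. Of 33 tested goblet and secretory cell genes, 7 were lower at 24 h (21.2%, against 1.28% of all genes) and 18 at 48 h (54.5%, against 9.41%), with medians of -0.55 and -1.34 and none higher. With 1 array left out these counts were 1 to 4 and 13 to 18. ATOH1, the master regulator of secretory fate, measured 7.14 and 7.42 at 0 h, 4.57 at 24 h and 4.40 and 4.59 at 48 h. It was not detected on these 3 induced arrays and was at least 6.24-fold lower at 24 h and at least 6.41-fold lower at 48 h. The Notch ligand DLL1, which is expressed in that lineage, changed by -2.18 and -2.36. The sialyltransferase ST6GALNAC1 changed by -2.71 at 24 h and -3.56 at 48 h, the goblet cell resistin-like protein RETNLB by -2.33 and -2.59, and the kallikrein KLK11 by -2.27 and -3.0. A second RETNLB probe, detected on 1 of the 5 arrays, changed by 0.31 and 0.40. SPDEF, a goblet cell transcription factor, and the mucin MUC2 had not passed at 24 h (-0.74 and -0.33) and were lower at 48 h, by -2.27 and -0.93.

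Of 26 tested enterocyte and surface antigen genes, 5 were lower at 24 h (19.2%, against 1.28% of all genes) and 16 at 48 h (61.5%, against 9.41%), with medians of -0.83 and -1.26 and none higher. With 1 array left out, 1 to 3 were lower at 24 h and 12 at 48 h. VIL1, which encodes the microvillus protein villin, measured 9.25 and 9.15 at 0 h, 8.38 at 24 h and 7.26 and 7.27 at 48 h. The 24 h array lay between the other pairs. VIL1 changed by -0.81 at 24 h (SE 0.16, adjusted p = 0.0577) and -1.94 at 48 h (SE 0.13, adjusted p = 0.000298). SLC5A1, the sodium-glucose cotransporter, changed by -2.0 at 24 h and -2.96 at 48 h. CEACAM5, the carcinoembryonic antigen, measured 5.70 at 24 h and was not detected at 48 h, where it was at least 10.5-fold lower than at 0 h. FAM3D, a gut-secreted protein, was likewise not detected at 48 h and at least 19.6-fold lower. GPA33 and GUCY2C, a surface antigen and the guanylin receptor, had not passed at 24 h (-1.51 and -1.05). At 48 h GPA33 changed by -3.35, and GUCY2C was not detected and was at least 7.92-fold lower.

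**Figure D2:**
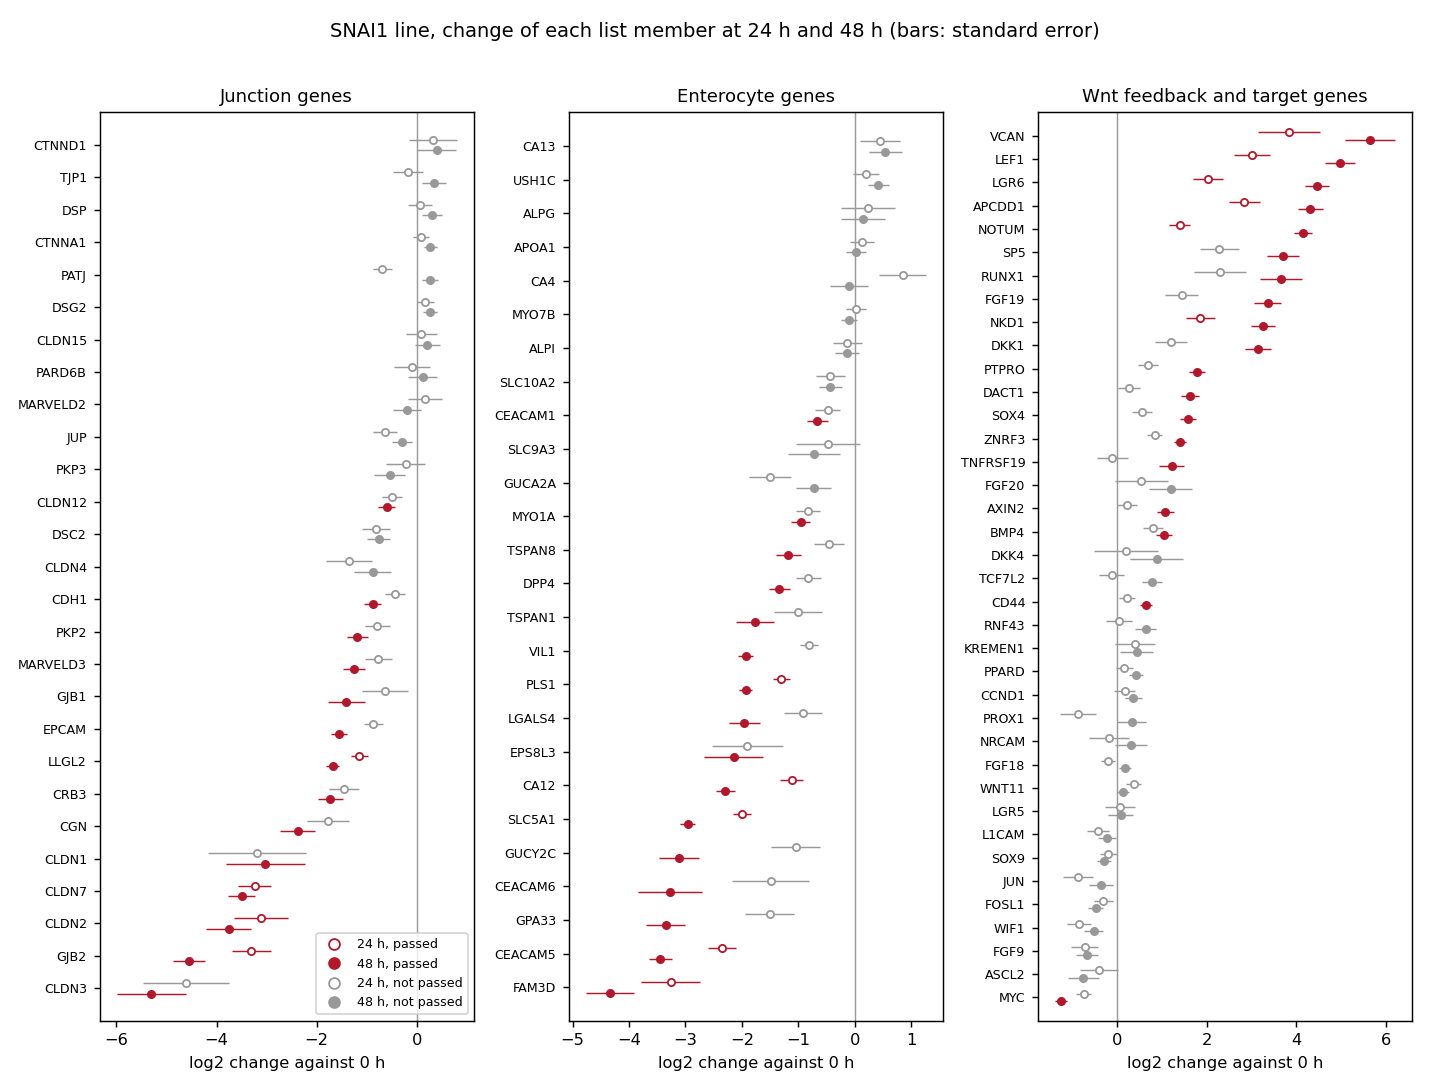
Log2 change against 0 h (x axis) of each tested member (y axis) of the junction, enterocyte and Wnt lists in the SNAI1 line, at 24 h (open) and 48 h (filled), with standard errors, red where the test was passed. Among junction genes CLDN7 sits at -3.24 and -3.50 at these times, among enterocyte genes VIL1 at -0.81 and -1.94, and among Wnt genes LEF1 at 3.02 and 4.98.

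The largest rises at 24 h had higher values still at 48 h. The largest among genes that passed at 24 h was DDIT4L, an inhibitor of mTOR signalling, which measured 6.19 and 5.49 at 0 h, 11.88 at 24 h and 12.80 and 12.67 at 48 h, with 5.07 to 5.26 in the control line. All 3 induced arrays lay more than 5 log2 units over both 0 h arrays, and the change was 6.03 at 24 h (SE 0.93, adjusted p = 0.0293) and 6.89 at 48 h (SE 0.76, adjusted p = 0.00185). VCAN, the matrix proteoglycan versican, measured 7.33 and 5.30 at 0 h, 10.15 at 24 h and 12.18 and 11.74 at 48 h. Its 0 h pair differed by over 2 units, and its 24 h call (3.84, adjusted p = 0.0466) was lost in 6 of 15 other settings. The remaining large 24 h rises were LIX1L, the myosin light chain MYL10, the membrane glycoprotein EMP3 (3.16), LEF1, ODAM and APCDD1. LIX1L, MYL10 and ODAM, an enamel organ protein, were not detected at 0 h. At 24 h they were at least 10.3-fold, 10.5-fold and 6.79-fold higher, and at 48 h at least 19.1-fold, 32.7-fold and 22.1-fold.

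For 6 of these 8 genes the interval of the further change from 24 h to 48 h lay above 0, and for all 8 the estimate was positive. ODAM also passed the direct test of 48 h against 24 h, with a further rise of 1.70 (SE 0.19, adjusted p = 0.0260). DDIT4L and LIX1L were the exceptions, with intervals from -1.33 to 3.05 and from -0.25 to 2.03. The 24 h call of DDIT4L was lost with any 1 of the 4 arrays left out and that of LIX1L without either 0 h array.

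Some of these genes were already above the control line at 0 h and unequal within the 0 h pair. APCDD1 measured 9.59 and 8.77 in the SNAI1 line at 0 h, against 7.95 in the control line, and LEF1 6.76 and 5.92, against 5.70. Among the 54 genes that were higher at 48 h by 3 or more log2 units, 0 h replicate 1 exceeded replicate 2 in 38 (70.4%), with a median difference of 0.34, against 50.2% and 0.00 over all genes. Among the 69 genes lower at 48 h by 3 or more log2 units, 0 h replicate 1 was also the higher one in 43 (62.3%), with a median difference of 0.09. Within the 48 h pair, the median difference of the 54 higher genes was 0.20, against 0.01 over all genes. The part of the 0 h pair in the changes was not tested.

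**Figure D3:**
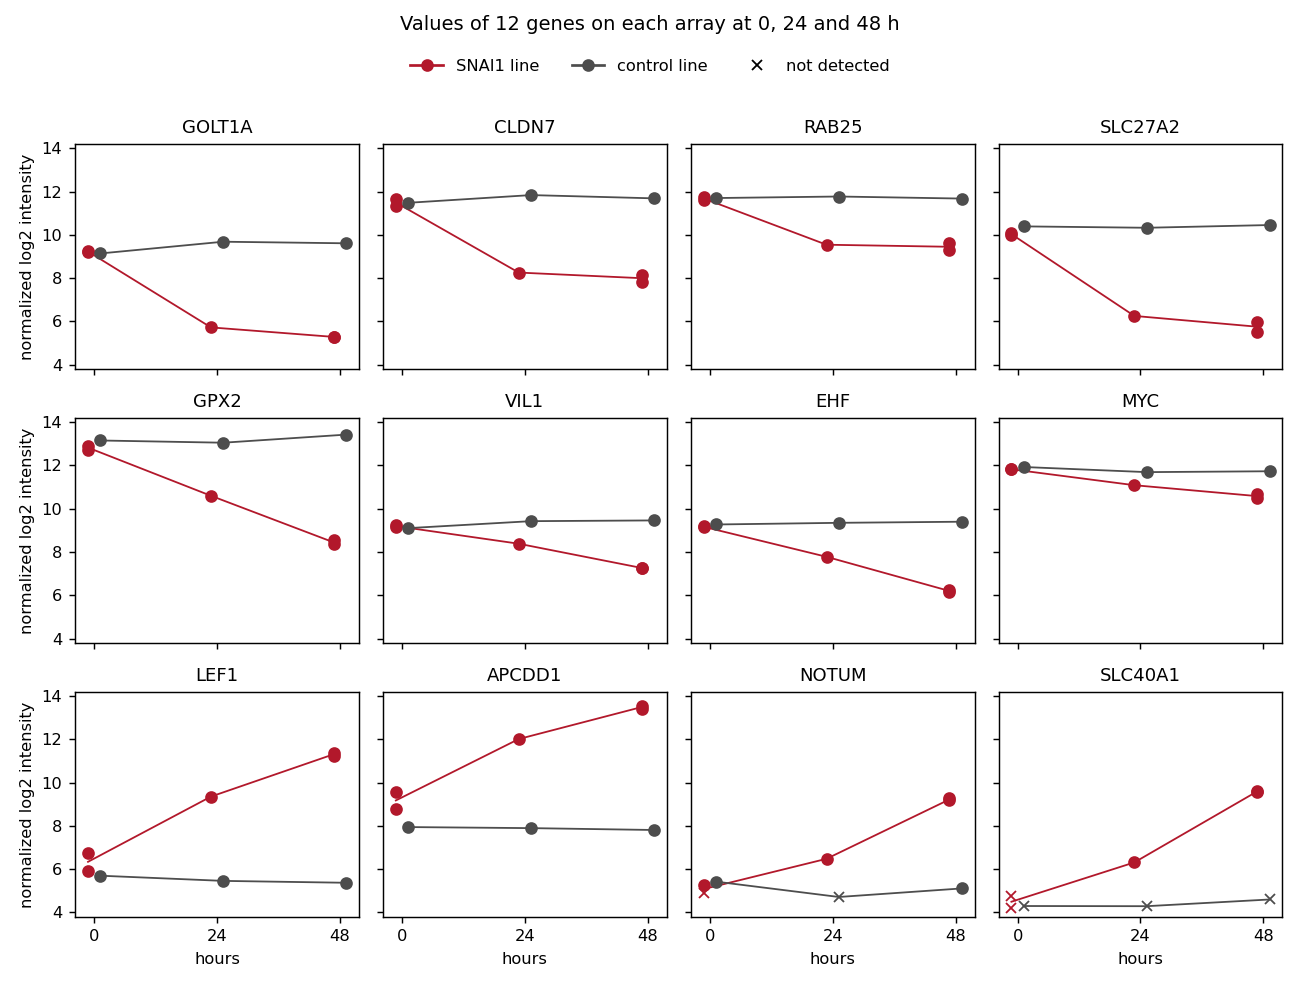
Normalized log2 intensity (y axis) of 12 genes on each array of the SNAI1 line (red, 2, 1 and 2 arrays) and the control line (grey, 1 array each) at 0, 24 and 48 h (x axis), with lines through the means and crosses where a probe was not detected. GOLT1A, CLDN7, RAB25 and SLC27A2 are near their 48 h level at 24 h, whereas GPX2, VIL1, EHF, LEF1, APCDD1, NOTUM and SLC40A1 lie between their 0 h and 48 h levels.

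Wnt feedback and target genes that passed were nearly all higher. Members not detected at 0 h, such as LGR6, DKK1 and RUNX1, could only be called higher, so the detection filter partly sets the shares below. The same holds for such members of the lists further below, among them COL3A1, TGFB2, EFNB3, HEY1 and SLC40A1. Of 38 tested, 6 were higher at 24 h (15.8%, against 0.638% of all genes) and 18 at 48 h (47.4%, against 9.44%), while MYC alone was lower, at 48 h. The median was 0.23 at 24 h and 0.83 at 48 h. These counts were 2 to 5 and 14 to 18 with 1 array left out. LEF1 measured 6.76 and 5.92 at 0 h, 9.36 at 24 h and 11.26 and 11.38 at 48 h, with 5.37 to 5.70 in the control line. The groups did not overlap, and the change was 3.02 at 24 h (SE 0.40, adjusted p = 0.0200) and 4.98 at 48 h (SE 0.33, adjusted p = 0.000298). A second LEF1 probe gave 3.13 and 5.33. The 24 h call of LEF1 was lost without 0 h replicate 2 (adjusted p = 0.0768).

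Several of these genes encode secreted or membrane inhibitors of Wnt signalling. APCDD1 measured 9.59 and 8.77 at 0 h, 12.02 at 24 h and 13.57 and 13.43 at 48 h, changes of 2.84 and 4.32. NOTUM, a deacylase that inactivates Wnt ligands, measured 4.90 and 5.26 at 0 h, 6.48 at 24 h and 9.27 and 9.18 at 48 h. It was among the 48 genes that differed between 48 h and 24 h, by 2.75 (SE 0.24, adjusted p = 0.0182). NKD1 changed by 1.86 at 24 h and 3.26 at 48 h, and ZNRF3 by 1.40 at 48 h without having passed at 24 h. DKK1, which likewise had not passed at 24 h, was not detected at 0 h and was at least 7.58-fold higher at 48 h. LGR6, a receptor for R-spondins, was not detected at 0 h and was at least 3.69-fold higher at 24 h and at least 20.0-fold higher at 48 h, with a further rise of 2.44 (adjusted p = 0.0471). SP5 and FGF19 were higher at 48 h, by 3.70 and 3.37, and RUNX1, not detected at 0 h, by at least 12.7-fold.

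Classic Wnt targets did not move alike. AXIN2, the usual reporter of beta-catenin activity, measured 11.62 and 11.56 at 0 h, 11.82 at 24 h and 12.87 and 12.46 at 48 h. Its change was 0.23 at 24 h (95% interval -0.31 to 0.77) and 1.08 at 48 h (SE 0.19, adjusted p = 0.00930), a call lost without 0 h replicate 2 or 48 h replicate 1. The change was 0.07 and 0.08 for the stem cell receptor LGR5 and 0.17 and 0.36 for CCND1 at 24 h and 48 h, none of which passed. MYC measured 11.81 and 11.84 at 0 h, 11.09 at 24 h and 10.49 and 10.68 at 48 h. It changed by -0.74 at 24 h (interval -1.13 to -0.34, adjusted p = 0.0830) and -1.24 at 48 h (SE 0.14, adjusted p = 0.00184), and a second probe gave -0.77 and -1.22.

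In promoter windows, the Wnt response motif CTTTGA or its reverse complement TCAAAG was found in 1 of 64 genes higher at 24 h (1.56%) and in 14.7% of those lower at 24 h, against 9.2% of all. The LEF1 window, chr4:108166252-108166551 on the minus strand, held neither this motif nor the SNAIL-type E-box. None of the 7 named 24 h risers with a window held the Wnt motif, so the window of DDIT4L, the largest riser, is shown. It lies at chr4:100190419-100190718 on the minus strand and held the E-box, in capitals, 2 times, at -197 and -65, in a gene that rose.
LEF1: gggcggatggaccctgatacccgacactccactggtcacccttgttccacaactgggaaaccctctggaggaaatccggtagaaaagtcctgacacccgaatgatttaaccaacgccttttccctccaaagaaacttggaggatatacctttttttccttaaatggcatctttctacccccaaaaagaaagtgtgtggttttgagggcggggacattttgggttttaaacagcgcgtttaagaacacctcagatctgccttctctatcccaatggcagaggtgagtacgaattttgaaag
DDIT4L: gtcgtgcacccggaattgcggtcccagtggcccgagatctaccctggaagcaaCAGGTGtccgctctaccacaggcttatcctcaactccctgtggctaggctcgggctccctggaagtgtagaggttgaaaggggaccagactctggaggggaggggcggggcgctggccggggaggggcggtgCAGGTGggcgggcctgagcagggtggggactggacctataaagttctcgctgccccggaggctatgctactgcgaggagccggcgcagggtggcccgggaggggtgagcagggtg

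The leading rises of the step from 24 h to 48 h were in genes near background at 0 h. SLC40A1, the iron exporter ferroportin, was not detected at 0 h, measured 6.31 at 24 h and 9.59 and 9.61 at 48 h. It was at least 3.14-fold higher at 24 h and at least 30.6-fold higher at 48 h than at 0 h, and rose by 3.29 log2 units over the step (SE 0.25, adjusted p = 0.0141). A second SLC40A1 probe was detected at 48 h alone and changed by 0.07 at 24 h and 2.25 at 48 h. LAMP5, a lysosome-associated membrane protein, measured 5.40 at 24 h and 8.97 and 8.34 at 48 h. Its rise over the step was 3.25 (SE 0.26, adjusted p = 0.0141). PRDM1, a transcriptional repressor, measured 5.54 and 5.04 at 0 h, 5.26 at 24 h and 8.45 and 8.24 at 48 h. A second PRDM1 probe, detected on 1 of the 5 arrays, changed by 0.50 at 48 h. For these 3 genes both 48 h arrays lay more than 2 log2 units over the 24 h array.

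The other leading step genes were COL3A1, a fibrillar collagen (3.04), CALCB, a calcitonin gene-related peptide (2.95), SNCAIP (2.81), NOTUM (2.75) and S100A3 (2.74). COL3A1 was not detected at 0 h, measured 5.67 at 24 h and 9.13 and 8.30 at 48 h, and was at least 17.8-fold higher at 48 h. EFNB3, an ephrin ligand, was not detected at 0 h or 24 h and measured 6.51 and 7.08 at 48 h, where it was at least 4.47-fold higher than at 24 h. The step calls of SLC40A1, NOTUM and PRDM1 were lost when either 48 h array was left out, and that of LAMP5 without 48 h replicate 1. Those of COL3A1, CALCB, SNCAIP and S100A3 were lost with any 1 of the 4 arrays left out. All of these calls were also lost when the fit held the 0, 24 and 48 h arrays alone, and that fit called no gene for the step.

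The genes lower at 48 h than at 24 h were of different kinds. GPX2, the gastrointestinal glutathione peroxidase, measured 12.73 and 12.92 at 0 h, 10.60 at 24 h and 8.54 and 8.35 at 48 h. The changes of -2.23 to 24 h and of -2.16 from 24 h to 48 h both passed. The step call of GPX2 was lost with any 1 of the 4 arrays left out and in the fit of the 0, 24 and 48 h arrays alone. DDC, the aromatic amino acid decarboxylase, measured 7.89 and 8.41 at 0 h, 7.36 at 24 h and was not detected at 48 h, where it was at least 5.06-fold lower than at 24 h. The brightest probe of CALB2, the calcium buffer calretinin, measured 8.57 and 8.71 at 0 h, 6.59 at 24 h and was not detected at 48 h. A second CALB2 probe, detected on all 5 arrays, changed by 0.31 at 24 h and 0.21 at 48 h, so the fall rests on 1 probe. AGMAT and EPN3 were lower at 48 h than at 24 h by -1.41 and -1.42.

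The other 5 genes of this set were higher on the 24 h array than on the 0 h and 48 h arrays. TFPI2, a serine protease inhibitor, measured 6.99 at 24 h, where it was at least 5.32-fold higher than at 0 h, and was not detected at 0 h or 48 h. The small nucleolar RNA gene SNORD96B, the lectin CLEC9A and the bile acid receptor GPBAR1 measured 6.28, 6.04 and 5.79 at 24 h and were not detected on either 48 h array. At other times SNORD96B was detected on 0 h replicate 2 (5.07) and at 3 h and 6 h, CLEC9A at 72 h and TFPI2 on 1 array at 96 h. Second probes of CLEC9A and GPBAR1, detected on none of the 5 arrays, changed by -0.15 and -0.31 at 24 h. HPN measured 6.39 at 24 h without passing detection, and 2 further HPN probes changed by 0.02 and 0.05 there. Of the 85 genes higher at 24 h, GPBAR1 and AK5 were detected on that array and on none of the other 10 SNAI1 line arrays. Of 20 markers of blood, endothelial, stromal and other cell types on the array, 7 were detected at 24 h, against 3 and 4 at 0 h and 3 and 3 at 48 h. MS4A1, CD14, DCN and PDGFRA were detected at 24 h alone among these 5 arrays. CD68 and ALB were detected on all 5 arrays, FAP on 4, KDR on 0 h replicate 2 and LUM on 48 h replicate 1. The other 11, among them PTPRC, CD3E, PECAM1 and VWF, were detected on none of the 5, and the part of these cell types in the result was not tested. With 1 array at 24 h, a property of that array and a short-lived rise cannot be told apart.

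Some mesenchymal genes were higher. Of 37 mesenchymal regulators, filaments and adhesion genes on the array, 19 were tested, and the others failed the detection filter. Of these 19, 1 was higher at 24 h (5.26%, against 0.638% of all genes) and 6 at 48 h (31.6%, against 9.44%). None was lower, and the medians were 0.22 and 0.42. COL3A1, a member not detected at 0 h, could only be called higher. MSN, the actin-membrane linker moesin, passed at 24 h (1.28, adjusted p = 0.0279) and at 48 h (1.95). CDH11, a mesenchymal cadherin, measured 6.33 and 6.52 at 0 h, 7.83 at 24 h and 9.78 and 9.07 at 48 h, a change of 3.00 at 48 h. NRP1, a semaphorin and VEGF co-receptor, changed by 2.38 at 48 h. VIM, the filament protein vimentin, measured 7.96 and 8.06 at 0 h, 7.85 at 24 h and 8.4 and 8.02 at 48 h, so the groups overlapped, and its change at 48 h was 0.20 with an interval from -0.30 to 0.70. FAP, a stromal marker that this line expressed at 0 h (8.04 and 8.67), was lower at 48 h by -3.34.

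Of 36 tested matrix, integrin and protease genes, 2 were higher at 24 h (5.56%, against 0.638% of all genes) and 10 at 48 h (27.8%, against 9.44%). For 7 of the 36 the 48 h change is a bound, and those undetected at 0 h could only be called higher. At 48 h 3 were lower (8.33%, against 9.41% of all genes). ANXA1, a phospholipid-binding annexin, measured 7.98 and 7.82 at 0 h, 10.64 at 24 h and 11.81 and 11.47 at 48 h, changes of 2.75 and 3.74. The control line had 6.16, 7.26 and 6.62 for ANXA1 at these times, and the difference between the lines passed at 48 h (3.28, adjusted p = 0.00823). CCN2, a matricellular growth factor, changed by 1.63 at 24 h (adjusted p = 0.0697) and 3.8 at 48 h (adjusted p = 0.000457). The lower ones were COL18A1 (-2.71) and ITGA6 (-1.58) and ITGB4, the paired integrin chains of hemidesmosomes. The brightest ITGB4 probe was not detected at 48 h and was at least 2.73-fold lower, while a second ITGB4 probe, detected on 1 of the 5 arrays, changed by 0.73. A second ITGA6 probe, also detected on 1 array, changed by -0.37.

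Of 22 tested TGF-beta and BMP pathway genes, none passed at 24 h, where their median was 0.60. At 48 h, with a median of 0.83, 10 were higher and 1 lower (45.5% and 4.55%, against 9.44% and 9.41% of all genes). The higher ones numbered 6 to 8 with 1 array left out. The signal transducer SMAD3 measured 7.24 and 6.87 at 0 h, 7.72 at 24 h and 8.62 and 8.71 at 48 h, a change of 1.61 at 48 h (adjusted p = 0.00208). The receptor BMPR2 changed by 1.92 and the target ID1 by 1.24. The ligand TGFB2 was not detected at 0 h, could therefore only be called higher, and was at least 2.86-fold higher at 48 h. The detection filter thus partly sets the higher share of this list. BAMBI, a decoy receptor, changed by 2.12, and the matrix protein TGFBI was the lower one (-1.18).

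MYC and ribosome biogenesis genes that passed were lower, at 48 h. Over all tested genes, 9.41% were lower and 9.44% higher at 48 h. None of 34 passed at 24 h (median -0.12), and 13 were lower at 48 h (38.2%, median -0.49), with none higher, or 5 to 7 with 1 array left out. The nucleolar genes NOP16 and RRP9 changed by -0.40 and -0.24 at 24 h and by -1.44 and -1.26 at 48 h. SRM, the spermidine synthase, measured 9.65 and 9.52 at 0 h, 9.33 at 24 h and 8.41 and 8.48 at 48 h. For these 3 genes the interval of the further change lay below 0, from -1.52 to -0.56 for NOP16. Of 31 ATF4 stress response genes, 1 was lower at 24 h (3.23%, against 1.28% of all genes). At 48 h, 14 were lower and 1 higher (45.2% and 3.23%), and 7 to 9 were lower with 1 array left out. The pseudokinase TRIB3 changed by -1.21 at 24 h (adjusted p = 0.0975) and -2.08 at 48 h, and PSAT1 of serine synthesis by -0.54 and -1.14.

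Cholesterol synthesis genes that passed were lower. Over all genes the lower share was 1.28% at 24 h and 9.41% at 48 h. Of 24 tested, 4 were lower at 24 h (16.7%) and 11 at 48 h (45.8%), with medians of -0.35 and -0.50 and none higher, or 1 at 24 h and 5 to 7 at 48 h with 1 array left out. TM7SF2, a sterol reductase, measured 10.28 and 10.12 at 0 h, 7.39 at 24 h and 6.66 and 6.75 at 48 h, with 10.44 to 10.48 in the control line. It was among the 8 genes whose 24 h change differed between the lines (-2.80, adjusted p = 0.0491). MSMO1 changed by -1.22 and -1.25, MVD by -1.03 and -1.74 and DHCR7 by -0.87 and -1.21 at 24 h and 48 h.

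Few cell cycle genes passed. Of 37 G1/S genes none passed at 24 h and 3 at 48 h (8.11%, against 18.9% of all), which were CDK6 (0.97) and CDK2 (0.51) higher and E2F2 (-1.39) lower. Of 36 G2/M genes, CENPF passed at 48 h (0.89, 2.78% of the list). Median changes at 24 h and 48 h were 0.22 and -0.03 for the G1/S genes and 0.42 and 0.24 for the G2/M genes. In the control line they were -0.08 and -0.01 for G1/S and -0.04 and 0.025 for G2/M. The lowest G2/M change at 24 h was -0.04. The 24 h medians of the SNAI1 line rest on a single array. CDKN1A, the p21 inhibitor, measured 11.42 and 11.15 at 0 h, 11.43 at 24 h and 11.39 and 11.30 at 48 h, with overlapping groups and an interval from -0.39 to 0.52 at 48 h. The calls of CDK6 and CDK2 were lost with any 1 of the 4 arrays left out, that of CENPF without either 0 h array or 48 h replicate 1 and that of E2F2 without 0 h replicate 1 or 48 h replicate 2. Of 32 cell cycle inhibitors and p53 targets, 1 was higher and 1 lower at 24 h (3.12% each, against 0.638% and 1.28% of all genes). At 48 h, 8 were higher and 1 lower (25% and 3.12%, against 9.44% and 9.41% of all genes). PLK2 was higher at both times, by 1.65 and 2.26. GDF15 was lower at both, by -1.57 and -1.61. TP53INP1 (1.74), TP53I3 (1.86) and CCNG2 (1.40) had passed at 48 h only among these comparisons with 0 h. A second TP53I3 probe, detected on 4 of the 5 arrays, changed by -0.19 at 48 h.

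The Notch pathway genes that passed were mostly lower. Of 21 tested, 3 were lower at 24 h (14.3%, against 1.28% of all genes). At 48 h, 5 were lower and 1 higher (23.8% and 4.76%, against 9.41% and 9.44% of all genes). HES5, a Notch target, measured 7.74 and 7.68 at 0 h and was not detected at 24 h, where it was at least 8.43-fold lower. At 48 h it measured 4.69 on both arrays, on 1 of them without passing detection. HES4 changed by -2.45 and -2.99 at these times, whereas the brightest probe of HEY1, another Notch target, was not detected at 0 h and was at least 4.92-fold higher at 48 h. A second HEY1 probe, detected on 1 of the 0 h arrays alone, changed by -0.30 at 24 h and -0.02 at 48 h, so the rise rests on 1 probe.

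Of 15 Eph receptors and ephrins, none passed at 24 h, and 4 were higher and 2 lower at 48 h (26.7% and 13.3%, against 9.44% and 9.41% of all genes). EFNB3, a member not detected at 0 h, could only be called higher. EPHB3, a crypt receptor and Wnt target, measured 10.24 and 10.17 at 0 h, 7.56 at 24 h and 6.36 and 7.04 at 48 h. The 3 induced arrays lay under the 0 h pair without overlap, and the change was -2.65 at 24 h (SE 0.90, adjusted p = 0.195) and -3.50 at 48 h (SE 0.73, adjusted p = 0.0185). That 48 h call was lost with any 1 of the 4 arrays left out. EPHA2 was higher by 1.65 and EPHA1 lower by -1.37 at 48 h. Of 20 stem and crypt base genes, 1 was lower at 24 h (5%, against 1.28% of all genes). At 48 h, 6 were higher and 8 lower (30.0% and 40.0%, against 9.44% and 9.41% of all genes). OLFM4, a crypt base marker, was not detected at 24 h or 48 h and was at least 10.6-fold and 12.2-fold lower. MEX3A was higher at 48 h by 1.40.

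Interferon response and antigen presentation genes numbered 35, of which 1 was higher and 1 lower at 24 h (2.86% each, against 0.638% and 1.28% of all genes). At 48 h, 8 were higher and 4 lower (22.9% and 11.4%). Over all genes, 9.44% were higher and 9.41% lower at 48 h, so the lower share was near that of all genes. IFIT1, an antiviral RNA-binding protein, measured 6.96 and 7.28 at 0 h, 8.86 at 24 h and 9.02 and 9.18 at 48 h. A second IFIT1 probe, detected at 24 h alone among the 5 arrays, changed by 1.55 at 24 h and 0.02 at 48 h. IFI44 and IFI6 changed by 2.58 and 2.07 at 48 h, and IRF7 by -1.73. Of 33 hypoxia and glycolysis genes, 1 was lower at 24 h (3.03%, against 1.28% of all genes). At 48 h, 2 were higher and 6 lower (6.06% and 18.2%, against 9.44% and 9.41% of all genes). The median of this list was 0.15 at 24 h in the SNAI1 line and 0.46 in the control line, and -0.10 and 0.14 at 48 h. ENO2, a neuronal-type enolase, changed by -2.25 at 24 h and -3.03 at 48 h in the SNAI1 line, while it measured 8.16, 9.10 and 8.58 in the control line at 0, 24 and 48 h. Of 23 iron and glutathione genes, 7 were higher and 4 lower at 48 h (30.4% and 17.4%, against 9.44% and 9.41% of all genes). The metallothioneins MT2A and MT1X were higher by 1.80 and 1.07.

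**Figure D4:**
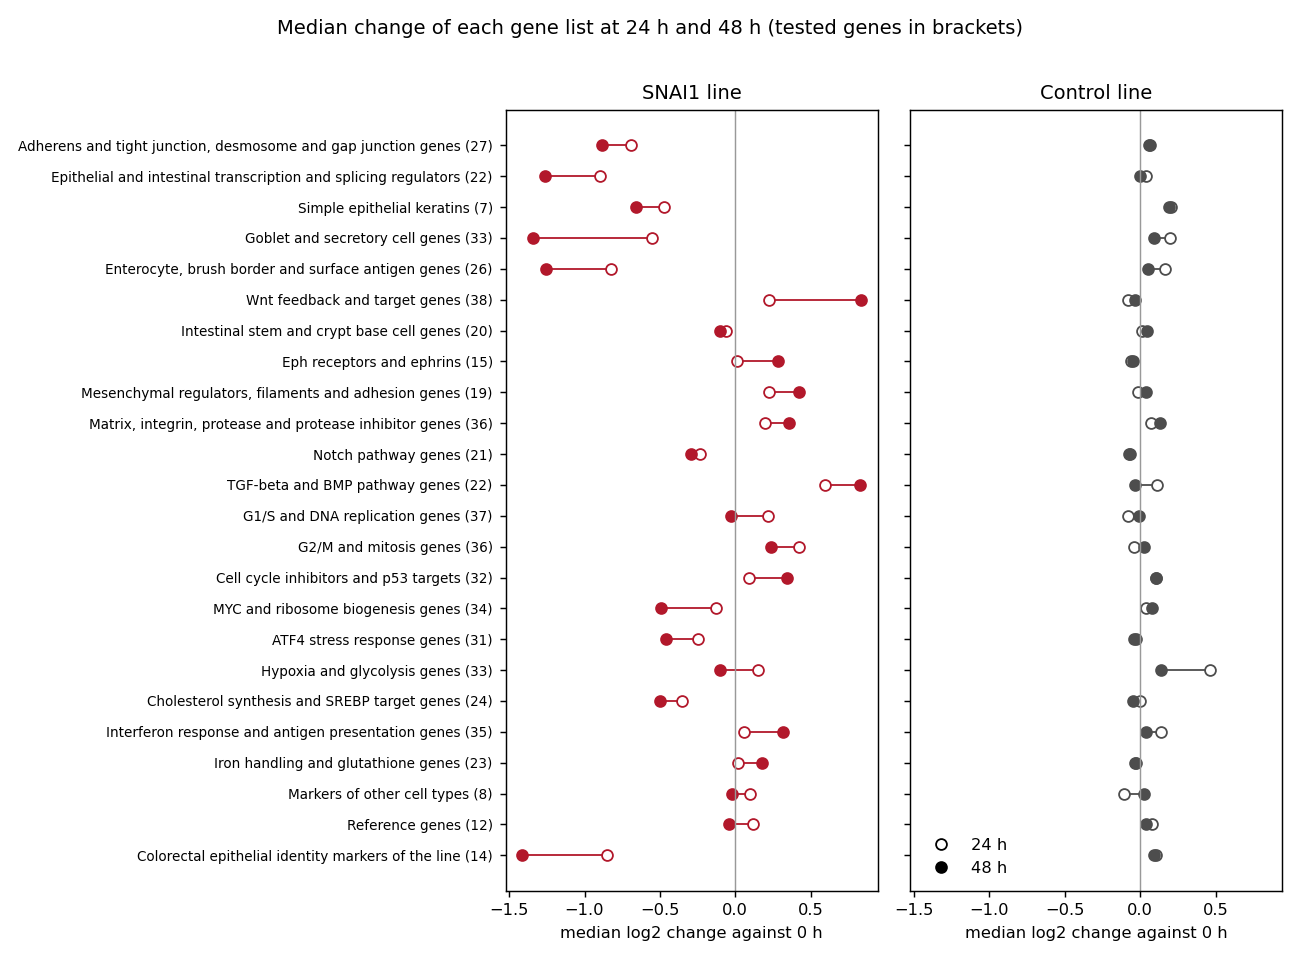
Median log2 change against 0 h (x axis) of the tested genes of each of 24 lists (y axis) at 24 h (open) and 48 h (filled), in the SNAI1 line (left) and the control line (right). In the SNAI1 line the goblet list lies at -0.55 and -1.34 and the Wnt list at 0.23 and 0.83, while the largest median in the control line is 0.46, for the hypoxia list at 24 h.

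Of 12 reference genes none passed at 24 h and TFRC, the transferrin receptor, alone was lower at 48 h (-0.62), a call lost with any 1 of the 4 arrays left out. With an array left out, counts at 48 h were 6 to 8 higher and 2 lower for matrix, integrin and protease genes, 1 higher and 3 to 4 lower for Notch genes, 1 higher and 3 to 5 lower for hypoxia and glycolysis genes, 1 to 3 higher and 2 to 3 lower for stem and crypt genes, 4 to 5 higher for cell cycle inhibitors and p53 targets, 5 higher and 1 to 3 lower for interferon genes and 2 to 4 higher and 1 lower for iron and glutathione genes. Setting the genes that were undetected on 1 side to their bound moved no list median by more than 0.14 at 24 h or 0.08 at 48 h. The changes at 24 h and 48 h share the 0 h arrays, and the step shares the 24 h array, so their values are given side by side and were not correlated.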

How the data were processed

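Biotin-labelled cRNA was hybridised to Illumina bead arrays, per the labels' protocols. The authors deposited log2 intensity values without normalization, each with a detection p-value, and a table of normalized log2 values, used here as an alternative. The software behind these files is not given in the sources used here. Of 47323 probes, 32 with missing values were dropped, 30113 had 1 gene symbol in the platform annotation, 8 several and 17202 none. From the deposited values, neqc of limma (limma 3.58.1, R 4.3.3) corrected background with the detection p-values (offset 16) and quantile-normalized the 18 arrays of the larger set. A probe was kept if 2 or more arrays gave it a detection p under 0.01 (25138 probes), and the brightest probe stood for each of 13332 genes. A linear model with 1 mean per line and time (14 groups, 4 residual degrees of freedom) and eBayes gave each comparison, with Benjamini-Hochberg adjustment over all genes at 5%. Across genes, replicate arrays of 1 group correlated at 0.982 to 0.990. The procedure was tested on simulated data.

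A gene that was not detected on any array of 1 side has its change given as a bound, at least N-fold, against the dimmest detected probes of those arrays. Members and gene lists were chosen with earlier results of these data known. Named genes are the 8 largest rises and falls per comparison among genes past 5%, without overlap of the arrays, up to 4 members per list by adjusted p at 48 h, and a short set always reported. Other list members and the RAB25 promoter were chosen after their values were seen. Some genes belong to several lists. Alternatives were the authors' values, no background correction, an offset of 50, median centring, other filters and probe rules, all 27 arrays, fewer arrays, trend and robust eBayes, a replicate block and 1 array left out. The E-box form CAGCTG was added after the data were seen.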

Additional observations from a re-analysis of the deposited data

Results flagged for a closer look

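The change in the SNAI1 line minus the change in the control line was tested directly for every gene, with the control line represented by 1 array at each time. It passed 5% after Benjamini-Hochberg adjustment in limma for 8 genes at 24 h and 299 genes at 48 h. Each value below is that difference on the normalized log2 scale, positive where the SNAI1 line changed upwards relative to the control line. Of 115 named genes tested, 2 passed at 24 h, which were ODAM (3.00) and TM7SF2 (-2.80), and 61 passed at 48 h. Values of genes not detected at one time are fitted differences and no bounds.

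At 48 h, the differences of the genes higher in the SNAI1 line were led by DDIT4L (7.08), VCAN (5.81), MYL10 (5.39), LEF1 (5.30), SNCAIP (5.07), SLC40A1 (4.80), ODAM (4.65), LAMP5 (4.58), EMP3 (4.57) and LIX1L (4.55). They were followed by NOTUM (4.46), APCDD1 (4.45), COL3A1 (4.36), LGR6 (4.29), S100A3 (4.27), CCN2 (3.60), CALCB (3.50), PRDM1 (3.33), ANXA1 (3.28) and CDH11 (3.09). Smaller positive differences that passed were those of IFI44 (2.90), EFNB3 (2.59), NRP1 (2.34), SMAD3 (1.91), MSN (1.58), PLK2 (1.56), TP53INP1 (1.53) and EPHA2 (1.39). Negative differences were led by GPX2 (-4.65), GJB2 (-4.53), FUT3 (-4.43), GOLT1A (-4.42), SLC27A2 (-4.34), FAM3D (-4.30), KCNT1 (-3.95), SNORC (-3.95), ATP10B (-3.81), CEACAM5 (-3.76) and CLDN7 (-3.71). The next were CALB2 (-3.66), ST6GALNAC1 (-3.50), TM7SF2 (-3.45), GPA33 (-3.45), ENO2 (-3.45), KLK11 (-3.34), EHF (-3.10), HES5 (-2.94), COL18A1 (-2.92), SLC5A1 (-2.90) and HES4 (-2.83). The smallest that passed were those of DDC (-2.80), RETNLB (-2.36), VIL1 (-2.29), RAB25 (-2.21), PLS1 (-2.15), AGR2 (-2.03), LLGL2 (-1.78), MVD (-1.72), HK2 (-1.68), EPCAM (-1.64) and PFKP (-1.49). No explanation of these differences was tested.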

How the results depend on the processing

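The counts of genes past 5% moved with the processing, and the cause was not tested. At 24 h against 0 h the SNAI1 line had 255 genes, against 763 in the authors' normalized values, 761 without background correction, 558 with an offset of 50, 676 with trend and robust eBayes and 408 with the 0, 24 and 48 h arrays alone. For 48 h against 24 h, 48 genes became 373, 369, 241, 349 and 0 in these settings. The line difference at 24 h, 8 genes, became 124, 126, 71, 116 and 0, and at 48 h 299 genes became 853, 839, 646, 785 and 450. The line difference between 48 h and 24 h, 0 genes, became 17, 17, 10, 1 and 0. The control line at 24 h, 0 genes, became 5, 5, 0, 7 and 0, and at 48 h it stayed at 0 in all 15 settings. With all 27 arrays and array set as a term, the line difference called 34 genes at 24 h and 1 for 48 h against 24 h, and without a filter on dim probes it called 0 at 24 h.

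With 1 array left out, the counts ran from 34 to 131 at 24 h, from 986 to 1204 at 48 h and from 0 to 9 for 48 h against 24 h. Those of the line difference were 0 at 24 h and ran from 86 to 127 at 48 h. With the replicate number as a block, the counts were 134 at 24 h, 2369 at 48 h, 23 for 48 h against 24 h, and 0 and 227 for the line difference at 24 h and 48 h. Same-numbered arrays deviated together with correlations of only -0.012 to 0.124, so the numbers were not taken as pairs.

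Among named genes, CDKN1A at 48 h, which did not pass (0.07), changed sign to -0.028 with median centring and ran from -0.069 to 0.20 with 1 array left out. At 24 h, 7 of 176 values of 16 named genes lost their call under other settings and 26 of 64 with 1 array left out. At 48 h these were 15 of 1067 and 48 of 388, and for 48 h against 24 h 28 of 171 and 51 of 64. The single 24 h array limits every 24 h value, and intensities near background set bounds and no folds.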
